A study of Homo sapiens with 4 samples.

Results

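The baseline described here is the transcriptome of untreated JJ012 cells, a widely used human cell line derived from a chondrosarcoma, which is a cancer of cartilage-forming cells. Its members were the 2 libraries labelled as untreated, of 4 in the series, and every one of the 61806 genes counted in them was considered. The other libraries came from JJ012 cells given Antcin K, a triterpenoid from a medicinal fungus, at 10 µM for 24 h, and they are not analysed here. The untreated cells carry the genotype label WT and the tissue label Bone, and were grown in a mixture of DMEM and α-MEM with fetal bovine serum and antibiotics. No vehicle is named for them. JJ012 is 1 line grown in culture, so it stands for a single tumour without its surrounding tissue, and nothing says that its libraries came from separate cultures. Differences between the libraries may therefore be technical. With 1 group of 2 libraries no test between conditions exists, and levels are given as descriptions with the value of each library, replicate 1 first.

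Cartilage cells are governed by the transcription factor SOX9, which switches on the genes of cartilage matrix such as type II collagen (COL2A1) and the large proteoglycan aggrecan (ACAN). As these cells mature they enlarge and switch to type X collagen (COL10A1), and bone-forming osteoblasts use RUNX2 and SP7. Chondrosarcomas often carry mutations in IDH1 or IDH2 and frequently lose the cell cycle inhibitor CDKN2A. Cultured chondrosarcoma lines keep these programmes to differing extents.

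The unit of level is FPKM, counted fragments relative to exon length and to the library total, which allows genes to be compared per length. A gene was called expressed at an FPKM of at least 1 in both libraries. By this measure 8544 genes were expressed, and 35818 had no count in either library. Of the 19838 protein-coding genes, 38.7% were expressed and 19.4% had no count. Another 1459 genes reached an FPKM of 1 in a single library, 936 of them in replicate 1 and 523 in replicate 2. The median FPKM of an expressed gene was 5.19 in replicate 1 and 5.12 in replicate 2. At the upper end 40 genes had a mean FPKM of at least 1000, of which 16 are encoded by the mitochondrial genome, and 365 more lay between 100 and 1000.

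The library totals were 26270686 and 18757254 counted fragments. The libraries stood apart in 1 respect that touches every level below. The mitochondrially encoded genes took 26.0% of the counts of replicate 1 and 12.9% of those of replicate 2, with exact 95% intervals of 26.0 to 26.1% and 12.9 to 13.0% that cover counting error only. Because FPKM is scaled by the library total, nuclear genes share what is left, and their FPKM in replicate 1 are lowered relative to replicate 2 by that difference. The gene counts were no copy of each other, with a chi-square per gene of 188 over 14947 genes. Genes are called compared where their mean FPKM was 1 or more and their counts over both libraries summed to 20 or more. Across these 9259 genes the Spearman rho of FPKM was 0.928, and over genes it is a description only.

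Among nuclear protein-coding genes the highest level belonged to FTL, the light chain of the iron store ferritin, at 16453 and 22432 FPKM. GAPDH, an enzyme of glycolysis, followed at 7820 and 12748 FPKM. RPS2, a protein of the small ribosomal subunit, stood at 3163 and 4129 FPKM. The 86 ribosomal protein genes together took 12.3% of the nuclear counts in replicate 1 and 14.8% in replicate 2. ENO1, another glycolytic enzyme, reached 2428 and 4526 FPKM, and LGALS1, the sugar-binding protein galectin-1, 2588 and 3811 FPKM. The remaining genes of the first 20 were the actins ACTB and ACTG1, the actin-binding TMSB10, the tubulin TUBB4B, the elongation factor EEF2, the glycolytic TPI1, the calcium-binding S100A11 and S100A4, and 7 further ribosomal protein genes. The 10 most abundant nuclear genes without a protein-coding class were headed by MTATP6P1, at 3802 and 1081 FPKM, and RPS2P5, at 643 and 848 FPKM. Most of those 10 are pseudogenes of mitochondrial or ribosomal protein genes, whose sequences resemble those of abundant genes, so their levels are uncertain.

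**Figure D1:**
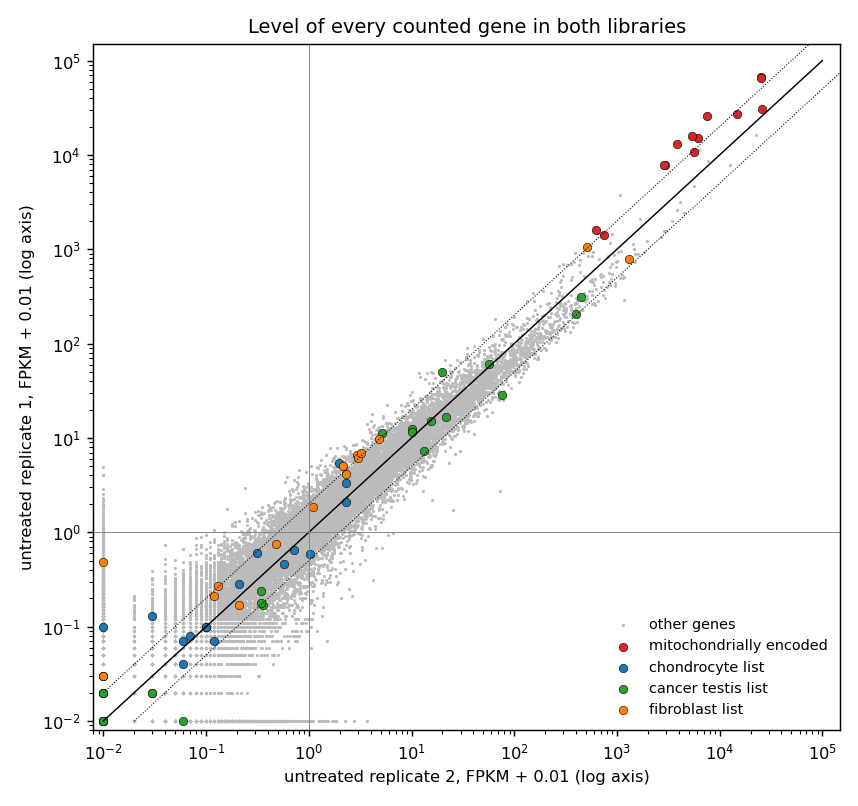
FPKM + 0.01 of every gene with a count, replicate 2 on the horizontal and replicate 1 on the vertical axis, both logarithmic; the solid line marks equal levels, dotted lines a 2-fold gap in FPKM, grey lines FPKM 1, and coloured points 4 gene lists. The mitochondrially encoded genes lie above the line of equality at the upper end, and most chondrocyte genes lie below FPKM 1 in both libraries.

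The cartilage programme was mostly absent by level. Of 24 chondrocyte genes 3 were expressed, against 38.7% of all protein-coding genes. COL2A1 (12:47972967-48004554, hg38), the main collagen of cartilage, had 0 counts in both libraries, where 3 counts would be 0.0171 and 0.0240 FPKM. ACAN had 1 count in replicate 1 and 0 in replicate 2. SOX9 (17:72121020-72126416), the governing factor, was present with 563 and 145 counts, or 5.45 and 1.97 FPKM. Its mean was 3.71 ± 2.46 FPKM (SD, n = 2), so the level in replicate 1 was well above that in replicate 2. Of the 3 genes that define the chondrocyte list, SOX9 thus fitted the label of a cartilage tumour, and COL2A1 and ACAN went against it. The other expressed members were FMOD, a small proteoglycan that binds collagen fibrils, at 3.35 and 2.28 FPKM, and COL9A2, a chain of the collagen on the surface of type II fibrils, at 2.10 and 2.31 FPKM. COL9A3, its partner chain, lay under the limit with 0.64 and 0.70 FPKM.

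Markers of maturing cartilage and of bone were low too. COL10A1 had 0 counts in both libraries, and IHH, the signal sent by prehypertrophic chondrocytes, had 0 and 1. RUNX2 reached 0.70 and 0.36 FPKM. The 3 expressed genes of 11 in the hypertrophic list were FOXA3, a forkhead factor, SPP1, the bone matrix protein osteopontin, and PTH1R, the receptor of parathyroid hormone-related protein. FOXA3 was the highest of them, at 16.19 and 22.02 FPKM, while SPP1 stood at 5.04 and 2.80 FPKM and PTH1R at 1.20 and 1.84 FPKM. Of 18 osteoblast genes 3 were expressed and 6 had no count. SP7 had 0 and 1 counts, BGLAP, the gene of osteocalcin, 0 and 4, and IBSP, bone sialoprotein, 0 in both. SPARC, a collagen-binding matrix protein that many connective tissue cells make, was at 25.48 and 22.16 FPKM, and COL1A1, the major chain of type I collagen, at 5.05 and 2.15 FPKM. In the osteoclast list ACP5, an acid phosphatase, and ATP6V0D2, a proton pump subunit, were expressed, ACP5 at 3.86 and 5.15 FPKM. CTSK, the collagen-degrading protease of osteoclasts, was at 0.10 and 0.03 FPKM.

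The mesenchymal stromal surface markers and the fibroblast genes were the lineage lists with the largest shares expressed. VIM, the filament protein vimentin, had 1051 and 507 FPKM (mean 779 ± 384, SD, n = 2), its level in replicate 1 about 2-fold that in replicate 2. ITGA5, the alpha chain of the fibronectin receptor, stood at 45.15 and 37.49 FPKM, and CD44, the hyaluronan receptor, at 10.28 and 7.20 FPKM. Of the defining stromal antigens, ENG (CD105) was expressed at 7.52 and 4.17 FPKM. NT5E (CD73) had 0 and 2 counts and THY1 (CD90) 13 and 14 counts, or 0.07 and 0.11 FPKM. In all 8 of 14 stromal genes and 9 of 16 fibroblast genes were expressed. These were the only lineage lists of 24 with 50% or more of their genes expressed. Among the fibroblast genes S100A4, a calcium-binding protein of motile cells, reached 798 and 1315 FPKM. FN1, fibronectin, was at 9.63 and 4.81 FPKM. The fibril genes were weaker: COL3A1 had 0.26 and 0.12 FPKM, and the small proteoglycans DCN and LUM had 6 and 1 and 34 and 0 counts. Of 44 collagen chains 8 were expressed, led by COL6A3 at 6.87 and 3.19 FPKM. COL5A1, COL6A2, COL4A1 and COL1A1 followed, each higher in replicate 1.

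**Figure D2:**
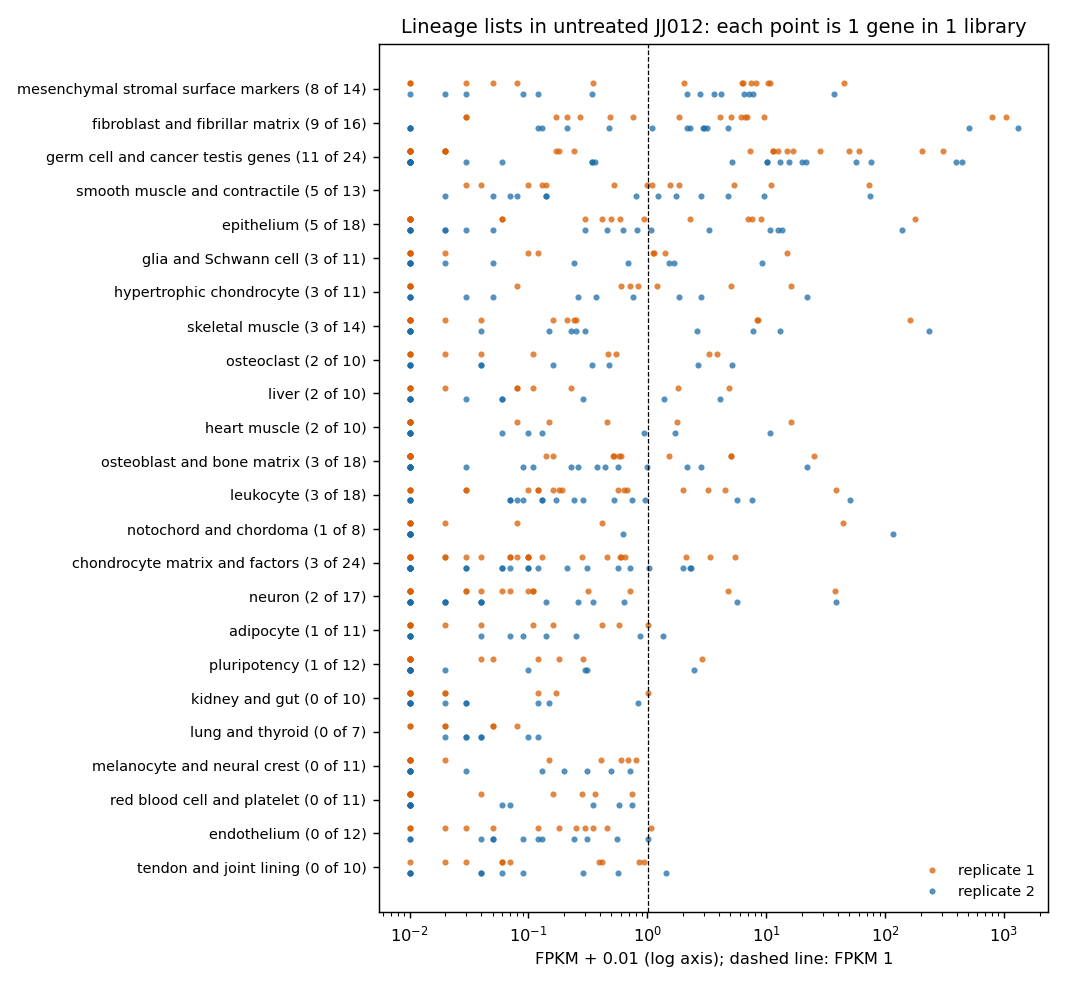
FPKM + 0.01 (logarithmic axis) of each gene of the 24 lineage lists, orange for replicate 1 and blue for replicate 2, with the number expressed of the number matched beside each name and FPKM 1 as a dashed line. Outside the stromal and fibroblast lists under 50% of the genes were expressed, while single genes stood far to the right in several, such as TNNT1 in the skeletal muscle list.

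Outside the skeleton, most lineages were little represented. Over all 24 lineage lists, skeletal ones included, 16 had none of their 3 defining genes expressed. No gene was expressed of 12 for endothelium, of 11 for melanocytes and neural crest, of 11 for red blood cells and platelets, of 10 for tendon and joint lining, of 10 for kidney and gut, and of 7 for lung and thyroid. The adipocyte list was the only one with all 3 defining genes at 0 counts, namely ADIPOQ, PPARG and FABP4. PTPRC, the surface phosphatase CD45 of leukocytes, had 0 counts in both libraries, and TBXT, the notochord factor brachyury that marks chordoma, also had 0. Pluripotency was represented by DNMT3B alone, a DNA methyltransferase, at 2.87 and 2.45 FPKM, with NANOG and LIN28A at 0 counts. Of 386 olfactory receptor genes, which mark a neuronal lineage, 359 had no count and 2 were expressed.

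Against that background single genes of distant lineages were abundant. TNNT1 (19:55132698-55149206), the slow skeletal troponin T of the contractile filament, had 9093 and 9375 counts, or 163 and 236 FPKM. Other genes of the skeletal muscle list were mixed. The master regulator MYOD1 had 0 counts in both. DES, desmin, at 8.56 and 13.00 FPKM and CKM, muscle creatine kinase, at 8.29 and 7.74 FPKM were expressed. The myosin MYH2 was at 0.20 and 2.60 FPKM, above the limit in replicate 2 alone. Among 8 troponin genes TNNC1 was the only one expressed besides TNNT1, at 1.00 and 1.17 FPKM. NKX2-5, a homeobox factor of the heart, was at 16.1 and 10.7 FPKM, while MYH6 and TNNT2 were not expressed. LCP1, the actin-bundling protein of blood cells, was at 38.73 and 51.25 FPKM beside the absent PTPRC. ENO2, the neuronal form of enolase, was at 38.01 and 38.99 FPKM, with SNAP25, a protein of synaptic release, at 1 and 0 counts. LGALS3, galectin-3, accounted for the notochord list with 44.07 and 115.74 FPKM. These genes were present in both libraries. No lineage list of the 24 had all 3 defining genes expressed, so the lack of a defining gene does not set these genes apart.

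Keratins made up another such group. KRT81 (12:52285913-52291534), a hard keratin of hair, had 14271 and 23413 counts, or 282 and 647 FPKM (mean 464 ± 258, SD, n = 2). KRT18, a keratin of simple epithelia, stood at 180 and 140 FPKM, and its usual partner KRT8 at 7.63 and 12.57 FPKM. KRT80, a keratin of differentiating epithelia, was at 47.63 and 57.60 FPKM. In total 8 of 55 keratin genes were expressed and 17 had no count. KRT86, a hair keratin close to KRT81 in sequence, was at 6.63 and 12.14 FPKM, and the split of reads between such relatives is uncertain. In GENCODE 29 the exons of KRT81 share no base with another gene, while 92.4% of the exonic bases of KRT8 and 83.7% of those of KRT18 are unshared. Of 18 epithelium genes 5 were expressed, and the 3 defining ones were not. CDH1, E-cadherin, had 8 and 4 counts, EPCAM 0 and 1, and the epithelial splicing factor ESRP1 0 and 1. CLDN7, a tight junction claudin that overlaps ELP5 on the opposite strand, was expressed at 9.03 and 13.48 FPKM, and so was CDH3, P-cadherin, at 2.29 and 3.29 FPKM. Of 24 claudins 2 were expressed.

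Cancer testis genes, whose products are normally confined to male germ cells and are recognised as tumour antigens, contained some of the most abundant tissue-restricted transcripts. CTAG2 (X:154651972-154653579), the antigen LAGE-1, had 8074 and 8232 counts, or 310 and 442 FPKM (mean 376 ± 93.7, SD, n = 2). Its close relative CTAG1B, NY-ESO-1, had 0 and 1 counts, a level that is uncertain where reads align to more than 1 copy. PAGE1 (X:49687447-49695984) stood at 205 and 397 FPKM, higher in replicate 2. MAGEC2, a partner of ubiquitin ligases, was at 60.42 and 57.11 FPKM, nearly equal in both. SSX1, a repressor of transcription known from fusion genes of synovial sarcoma, was at 49.43 and 19.97 FPKM, PRAME, a substrate receptor of a ubiquitin ligase, at 15.07 and 15.42 FPKM, and MAGEA1 at 16.80 and 21.72 FPKM. In the list of 24 germ cell and cancer testis genes, 11 were expressed (45.8%), near the 38.7% of all protein-coding genes.

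Over 12 cancer testis families with 95 genes, each on the X chromosome, 26 genes were expressed, which is 27.4%, and 33 had no count. Of all 840 protein-coding genes on X, 33.7% were expressed. The members within a family were far apart. In the PAGE family PAGE1 and PAGE5 were expressed, PAGE5 at 28.40 and 76.78 FPKM, and the other 4 had at most 10 counts in a library. MAGEB2 was expressed at 46.97 and 81.41 FPKM as the only one of 11 MAGEB genes. The MAGEA family had 6 of 12 and the CSAG family 3 of 3 members expressed, with CSAG1 at 50.16 and 78.60 FPKM. The 12 CT47A genes had no count in either library. GAGE2A, at 118 and 208 FPKM, stood for 13 GAGE genes of which 3 were expressed. These copies are nearly identical, as are MAGEA3 and MAGEA6, so the split of reads among them is uncertain. The handling of multiply aligned reads is not given. Low counts of genes with close copies, such as CTAG1B and the CT47A genes, therefore do not show absence.

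**Figure D3:**
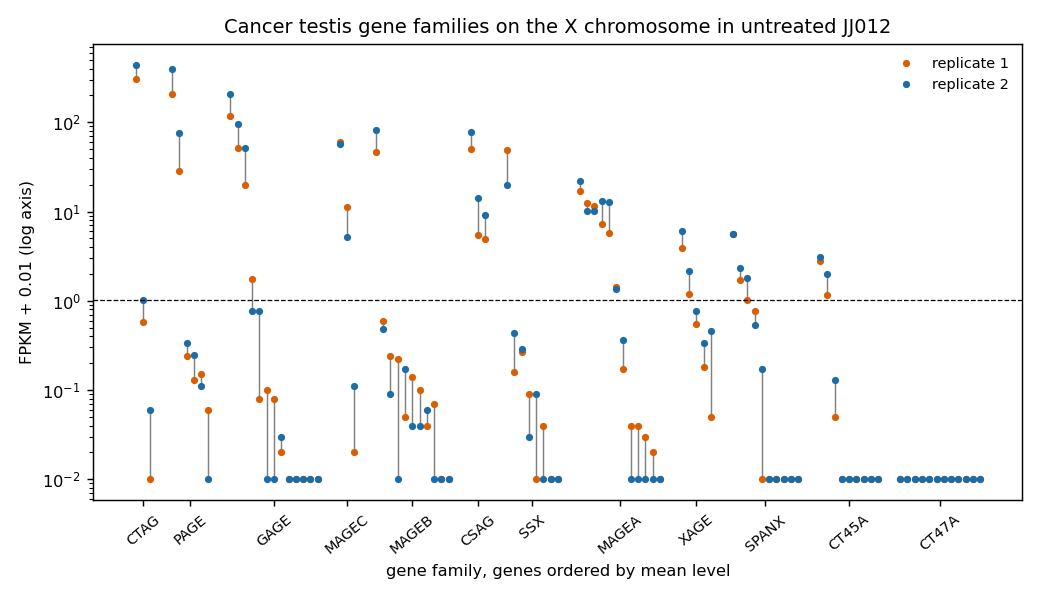
FPKM + 0.01 (logarithmic axis) of the 95 genes of 12 cancer testis families, ordered by mean level within a family, orange for replicate 1 and blue for replicate 2, with a grey line joining the libraries and FPKM 1 dashed. CTAG2, PAGE1 and GAGE2A exceeded 100 FPKM in both libraries, whereas every CT47A gene was at 0.

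The start regions of 3 members each of the MAGEB and PAGE families are shown because levels within these families differed so widely. They are the 250 bases before the RefSeq start on GRCh38.p14, read on the gene's strand, with each CG dinucleotide, the target of DNA methylation, in capitals. MAGEB2 (chrX:30215313-30215562, plus strand, expressed) held 15 CG. Below the limit, MAGEB3 (chrX:30230407-30230656, plus strand, 0 counts) and MAGEB1 (chrX:30243481-30243730, plus strand, 0.04 and 0.16 FPKM) held 1 CG each. PAGE1 (chrX:49695985-49696234, minus strand, expressed) held 9 CG, PAGE2 (chrX:55088768-55089017, plus strand, 0.23 and 0.33 FPKM) held 11 and PAGE4 (chrX:49829010-49829259, plus strand, 0.12 and 0.24 FPKM) held 4.
MAGEB2: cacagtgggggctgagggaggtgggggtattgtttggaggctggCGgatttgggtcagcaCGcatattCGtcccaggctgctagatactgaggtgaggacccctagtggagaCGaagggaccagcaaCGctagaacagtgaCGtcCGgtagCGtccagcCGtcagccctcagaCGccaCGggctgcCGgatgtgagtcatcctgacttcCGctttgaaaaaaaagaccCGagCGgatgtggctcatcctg
MAGEB3: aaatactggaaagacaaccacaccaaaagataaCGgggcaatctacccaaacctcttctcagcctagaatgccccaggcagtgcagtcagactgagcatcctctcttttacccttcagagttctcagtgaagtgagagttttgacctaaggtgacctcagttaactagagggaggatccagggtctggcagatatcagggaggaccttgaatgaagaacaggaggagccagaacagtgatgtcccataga
MAGEB1: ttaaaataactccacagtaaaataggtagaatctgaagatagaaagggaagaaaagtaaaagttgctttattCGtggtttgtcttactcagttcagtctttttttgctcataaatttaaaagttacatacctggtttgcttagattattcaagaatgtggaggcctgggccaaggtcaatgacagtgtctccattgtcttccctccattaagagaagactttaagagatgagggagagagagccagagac
PAGE1: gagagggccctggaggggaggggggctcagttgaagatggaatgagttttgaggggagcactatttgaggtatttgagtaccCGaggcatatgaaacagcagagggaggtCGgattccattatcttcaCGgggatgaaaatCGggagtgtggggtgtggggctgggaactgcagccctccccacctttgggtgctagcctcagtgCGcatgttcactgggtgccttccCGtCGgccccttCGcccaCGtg
PAGE2: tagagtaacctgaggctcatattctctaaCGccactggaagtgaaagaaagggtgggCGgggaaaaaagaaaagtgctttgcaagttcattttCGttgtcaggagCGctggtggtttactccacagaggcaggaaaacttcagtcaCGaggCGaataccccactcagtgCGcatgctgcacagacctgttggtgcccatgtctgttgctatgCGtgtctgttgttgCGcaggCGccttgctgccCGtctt
PAGE4: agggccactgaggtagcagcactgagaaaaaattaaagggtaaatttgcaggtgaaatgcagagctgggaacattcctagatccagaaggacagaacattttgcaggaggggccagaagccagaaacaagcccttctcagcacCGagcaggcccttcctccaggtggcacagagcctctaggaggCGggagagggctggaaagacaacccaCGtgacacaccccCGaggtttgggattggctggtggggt

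Among the MAGEB genes with an entry, MAGEB2 had the most CG dinucleotides, but others below the limit were also rich in them, with 12 in MAGEB10 and 11 in MAGEB16, and MAGEB4, which lies between MAGEB3 and MAGEB1, had 1. In the PAGE family PAGE2, below the limit, had more than PAGE1. Over the 12 families the median was 8 CG in the 23 expressed genes with an entry and 7 in the 44 others. Over all 15226 protein-coding genes with an entry the median was 17 CG, with 21 for the 6292 expressed and 12 for the 8934 not expressed. The motif CCGGAAG, 1 of the sequences that ETS factors bind, was searched on both strands. It occurred in 11.98% of all these regions, in 18.5% of those of expressed genes and in 7.37% of those of genes not expressed. Among cancer testis genes it occurred in 1 of 23 expressed and in 1 of 44 others. None of the 6 sequences printed here contained it. These are counts of letters in a window and no measure of methylation or binding.

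Positional identity was read from the HOX genes, homeobox factors laid out in 4 clusters whose order follows the body axis. Of 39 HOX genes 11 were expressed (28.2%) and 14 had no count, against 38.7% and 19.4% of all protein-coding genes. HOXC10, a posterior member active in hindlimb and lower trunk, was highest, at 25.49 and 12.43 FPKM (mean 18.96 ± 9.23, SD, n = 2). It exceeded every other HOX gene in both libraries. HOXB7 followed with 6.49 and 3.89 FPKM, HOXC9 with 6.56 and 3.01, HOXB13 with 3.88 and 5.28, HOXC13 with 4.80 and 2.80 and HOXC6 with 4.41 and 2.61 FPKM. The ranges of these 5 genes overlapped, so their order is not resolved by 2 libraries. HOXD4 reached 2.68 and 3.71 FPKM, HOXB2 3.10 and 2.37, HOXA4 2.53 and 1.64, HOXC11 1.47 and 1.18 and HOXB6 1.39 and 1.00 FPKM. HOXC9 and HOXC6 overlap each other and an antisense RNA in part, with 90.3% and 84.3% of their exonic bases shared with no other gene in GENCODE 29. The unshared part was smaller for HOXB6 at 67.1%, HOXA4 at 52.7% and HOXD4, which overlaps HOXD3 on its strand, at 19.5%. The levels of these 3 genes are therefore uncertain. By these calls the C cluster held 5 of the 11 expressed genes, the B cluster 4, and the A and D clusters 1 each. The calls for the A and D clusters rest on HOXA4 and HOXD4 alone and share that uncertainty.

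**Figure D4:**
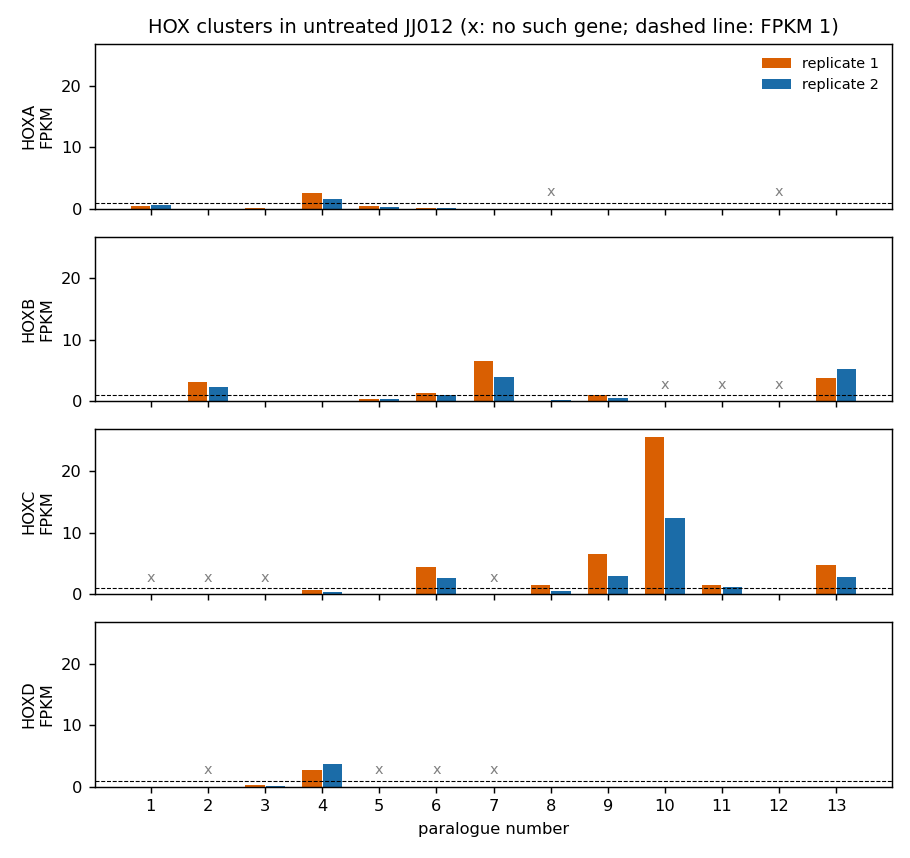
FPKM of each HOX gene by cluster and paralogue number, orange bars for replicate 1 and blue bars for replicate 2, with FPKM 1 dashed and a grey x where the cluster has no such gene. HOXC10, at 25.49 and 12.43 FPKM, stood above the rest of the 4 clusters in both libraries.

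Among the other 35 limb and skeletal patterning factors 7 were expressed. SIX2, a homeobox factor of mesenchymal progenitors, was at 18.91 and 17.76 FPKM, and PITX1, which specifies the hindlimb, at 14.28 and 12.93 FPKM. Both were nearly equal in the libraries. FOXD1, a forkhead factor of embryonic mesenchyme, was at 6.01 and 1.75 FPKM, and TWIST1, a regulator of mesenchyme, at 2.65 and 2.46 FPKM. PRRX1, the early limb bud factor, was not expressed. The hedgehog pathway, which steers cartilage growth, had 3 of 16 genes expressed: its target GLI1 stood at 1.11 and 1.13 FPKM, and the ligand SHH had 0 counts. By deposited GO annotation 1184 genes encode transcription factors, of which 280 were expressed and 384 had no count. Of all protein-coding genes 38.7% were expressed and 19.4% had no count. Leaving aside ENO1, which carries that annotation as well, the most abundant were HDGF, a chromatin-bound growth factor, at 249.23 and 280.20 FPKM, ATF4, the factor of the amino acid stress response, at 117 and 181 FPKM, and MYBL2, a cell cycle activator, at 121 and 91.3 FPKM. E2F1, which drives entry into S phase, was at 48.90 and 50.02 FPKM.

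The programmes of growth were nearly complete. Of 24 proliferation genes 23 were expressed. CCNE2, the cyclin E2, was under the limit at 0.24 and 0.13 FPKM, but it overlaps INTS8 and NDUFAF6 on the opposite strand and has 62.9% of its exonic bases unshared, so its level is uncertain. TK1, the thymidine kinase of S phase, was at 256 and 353 FPKM, CDC20, an activator of mitotic exit, at 248 and 347 FPKM, MCM7, a subunit of the replicative helicase, at 138 and 199 FPKM, and CCNB1, the mitotic cyclin B1, at 165 and 134 FPKM. MKI67, the antigen Ki-67, was at 5.22 and 3.61 FPKM. Of 15 telomere maintenance genes 9 were expressed. NHP2, a protein of the telomerase and snoRNA complexes, was at 228 and 358 FPKM, but TERT, the catalytic subunit of telomerase, had 7 and 0 counts. The histone list had 12 of 16 genes expressed.

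Among genes tied to chondrosarcoma, 9 of 20 were expressed (45%), near the 38.7% of all protein-coding genes. CDK4, the kinase that phosphorylates RB1, was at 118 and 251 FPKM, its level in replicate 2 more than 2-fold that in replicate 1 on the FPKM scale. Of its exonic bases 56.8% are shared with no other gene in GENCODE 29, so its level and this gap are uncertain. IDH1 and IDH2, the isocitrate dehydrogenases, were at 11.96 and 11.91 and at 40.15 and 59.55 FPKM. CDKN2A (9:21967752-21995301), which encodes the inhibitors p16 and p14ARF, and CDKN2B, which encodes p15, had 0 counts in both libraries, where 3 counts would be 0.0294 and 0.0412 FPKM for CDKN2A. Their neighbour MTAP, an enzyme of methionine salvage, had 48 and 33 counts, or 0.13 and 0.12 FPKM. The surrounding window from MLLT3 to ELAVL2 held 28 genes, 2 of them long RNAs. Of these, 18 had no count, against 19.4% of all protein-coding genes. Most of the 18 are interferon genes, namely the 13 interferon alpha genes, IFNB1 and IFNW1. Whether any part of this window is lost was not tested. The 2 expressed genes there were FOCAD, a focal adhesion protein, at 8.68 and 9.21 FPKM and KLHL9, an adaptor of a ubiquitin ligase, at 4.13 and 4.30 FPKM. CDKN2A overlaps CDKN2B-AS1, an antisense RNA with 205 and 103 counts, and 92.1% of the exonic bases of CDKN2A are shared with no other gene in GENCODE 29. Other inhibitors were present: CDKN1A, p21, was at 30.47 and 39.65 FPKM and CDKN2C, p18, at 12.76 and 17.45 FPKM.

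Genes of both glycolysis and respiration were expressed at the level of RNA, which does not show how much energy each route supplies. Of 20 glycolysis genes 19 were expressed. TPI1, triosephosphate isomerase, was at 890 and 1494 FPKM and PKM, pyruvate kinase, at 452 and 724 FPKM. The 20 nuclear genes of respiratory chain subunits were expressed without exception, as were the 13 mitochondrially encoded proteins. MT-CO2, a catalytic subunit of cytochrome oxidase, was the highest of them, at 66575 and 25359 FPKM, and MT-CO1 was closer between the libraries at 31045 and 26119 FPKM. In the stress and unfolded protein response list 21 of 22 genes were expressed. SQSTM1, the autophagy receptor p62, stood at 270 and 410 FPKM, NQO1, a quinone reductase of the NRF2 response, at 146 and 186 FPKM, and CALR, the chaperone calreticulin, at 143 and 134 FPKM. ASNS, asparagine synthetase and a target of ATF4, was under the limit at 0.33 and 0.14 FPKM. It overlaps another gene on its strand and has 55.4% of its exonic bases unshared, so its level is uncertain.

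Signals to other cells were few. Of 25 cytokine and chemokine genes 4 were expressed (16%) and 14 had no count, against 38.7% and 19.4% of all protein-coding genes. MIF, a macrophage migration factor, was the highest at 240 and 396 FPKM, while IL6 had 1 and 0 counts and CXCL8 had none. Of 36 growth factor ligands 9 were expressed, led by VEGFB at 58.66 and 23.71 FPKM and TGFB1 at 48.93 and 14.03 FPKM, both higher in replicate 1. Of 38 receptors 14 were expressed (36.8%), near the share of all protein-coding genes. AXL, a receptor tyrosine kinase bound by GAS6, was the highest at 45.61 and 37.53 FPKM, and EGFR lay under the limit at 0.75 and 0.37 FPKM. Among 21 matrix proteases 8 were expressed (38.1%), also near that share. Of these proteases MMP14, a membrane-anchored collagenase, was at 12.42 and 9.59 FPKM and MMP3, stromelysin, at 11.68 and 15.27 FPKM. Their inhibitors were more abundant. TIMP4, a metalloprotease inhibitor, was at 118 and 190 FPKM and TIMP1 at 76.39 and 43.87 FPKM, so that TIMP4 exceeded TIMP1 in both libraries.

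Of 18 antigen presentation genes 8 were expressed (44.4%), near the 38.7% of all protein-coding genes, and their levels were uneven. HLA-E, a ligand of NK cell receptors, led with 36.71 and 42.91 FPKM, and B2M, the shared light chain of class I molecules, had 12.81 and 6.46 FPKM. HLA-C, a class I heavy chain, was weaker at 1.18 and 1.21 FPKM, and HLA-B, another, was at 0.18 and 0.21 FPKM. HLA-DRA, a class II chain, was not expressed. Of 18 immediate early genes 11 were expressed. IER3, a regulator of survival, was at 51.49 and 60.11 FPKM and JUNB at 30.76 and 39.50 FPKM, whereas FOS was at 0.27 and 0.10 FPKM. Of 19 long non-coding RNAs 7 were expressed, with NORAD at 13.19 and 10.73 FPKM. MALAT1, a nuclear RNA abundant in many cells, had 74 and 22 counts, or 0.32 and 0.13 FPKM. TALAM1, an antisense RNA of the same locus, is listed with 0 counts, and reads of their overlap cannot be told apart without the strand setting.

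The spread between the libraries was then measured on counts scaled by TMM, which assumes that most genes do not differ. Over the 9259 compared genes the median gap was 1.35-fold, and 64.3% lay within 1.5-fold. Replicate 1 was at least 2-fold higher for 551 genes, which is 5.95% of those compared, and replicate 2 for 501 genes, which is 5.41%. Of the genes past 2-fold, 52.4% were higher in replicate 1 under TMM. When counts were scaled by the nuclear totals, the median of all compared genes moved from -0.04 to 0.22 on the log2 scale, and 1104 genes were higher in replicate 1 against 225 in replicate 2, or 83.1%. The change of scaling moves every gene by the same amount, and gaps of lists are given relative to the median of all compared genes.

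Mitochondrially encoded proteins stood highest in replicate 1, with a median log2 ratio of 1.39 above that of all genes and 9 of 13 genes at 2-fold or more, against 5.95% of all compared genes. The fibroblast and fibrillar matrix genes came next with 1.07, and 5 of 9 compared genes past 2-fold. Growth factor ligands had 0.91 with 4 of 11, HOX genes 0.70 with 3 of 12 and stromal surface markers 0.63. The opposite sign was found for epithelium at -0.56, glycolysis at -0.44 and the nuclear respiratory chain at -0.44, the last with 5 of 20 genes at least 2-fold higher in replicate 2. Proliferation genes were balanced at -0.01. The exonic length of a gene moved weakly with its gap, with a Spearman rho of 0.206 over genes. Among 8247 compared protein-coding genes the median log2 ratio was -0.27 in the shortest of 5 equal bins and 0.12 in the longest. Over 5 bins of rising GC content it was 0.23, 0.04, -0.14, -0.24 and -0.07. Their part in the list gaps was not tested. The levels of VIM, FN1, TGFB1 and HOXC10 lie in lists with such a gap and depend on the library accordingly. TPM2, a tropomyosin at 73.95 and 74.38 FPKM, and MAGEC2 were close between the libraries on the FPKM scale. Both are examples taken after their values were seen, so their small gap does not show that their levels are better fixed.

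**Figure D5:**
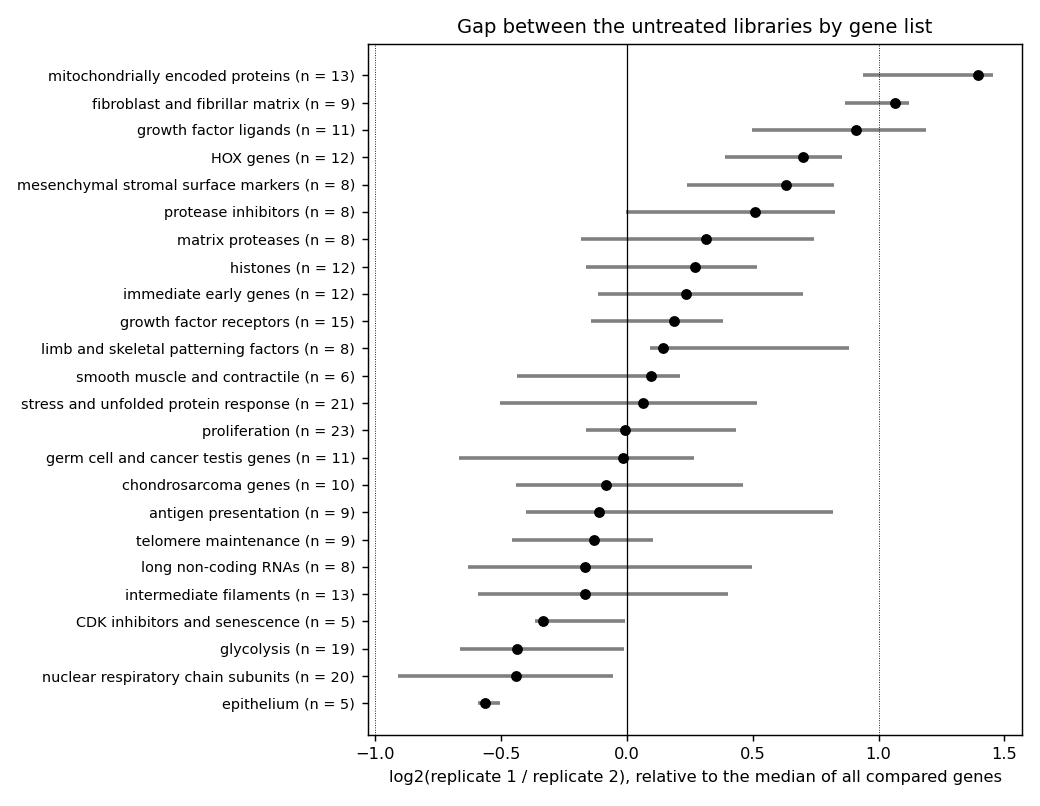
Median (point) and interquartile range (grey bar) of the log2 ratio of replicate 1 to replicate 2, TMM-scaled and relative to the median of all compared genes, for each list with at least 5 compared genes; dotted lines mark 2-fold. Mitochondrially encoded proteins at 1.39 and fibroblast genes at 1.07 lie farthest to the right, and epithelium at -0.56 farthest to the left.

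The widest single gaps among genes with at least 100 counts were found toward replicate 2. ENSG00000279444 (12:63151065-63154006), for which the deposited table gives no symbol, had 24 and 458 counts, or 2.74 and 73.32 FPKM, a 27.1-fold gap with a 95% counting interval of 17.99 to 42.76. MYH2, a fast myosin of skeletal muscle, had 34 and 311 counts, 13.0-fold apart with an interval of 9.11 to 19.1. NIPSNAP3A, a protein linked to vesicle transport, was at 2.19 and 15.92 FPKM, 7.37-fold apart. Toward replicate 1 the widest was FNDC10, a membrane protein with a fibronectin domain, at 3.39 and 0.58 FPKM and 5.78-fold apart, followed by C17orf97 at 4.97-fold and RNPEPL1, an aminopeptidase-like protein, at 4.86-fold. ATN1, a transcriptional corepressor, was 4.70-fold apart. These intervals cover counting error between 2 libraries and no spread among cultures.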

How the data were processed

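RNA was harvested with TRIzol and run as 2×150 paired-end reads on a NovaSeq, per the labels' protocols. The submitters' processing notes name HTSeq 0.6.1, HISAT2 2.2.1, cutadapt 1.9.1 and the build hg38. For annotation release, strand setting and multiply aligned reads, the entry is: not given in the sources used here. For each library the authors deposited unpooled raw counts by Ensembl gene ID, which total 26270686 and 18757254. The deposited FPKM values were rounded by the authors to 2 decimals, and FPKM recomputed from counts, lengths and totals lay within 0.005 of them. The Antcin K libraries are not analysed here. The table gives no symbol for 20417 genes.

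Counts were scaled by TMM (edgeR 4.0.16 in R 4.3.3), library totals, nuclear totals and DESeq2 1.42.0 size factors. No test between groups was possible. Ratios gave a library at 0 a count of 0.5. The ratio step was checked on data simulated with counting error only and scaled by library totals. That check does not cover TMM or the spread seen between these libraries. Gene types and exon overlaps came from GENCODE 29, which held 94.3% of the IDs, and start regions from RefSeq GRCh38.p14. Members and the 45 gene lists were chosen with earlier results of these data known; 1 list symbol had no match. The genes named were the 20 coding and 10 non-coding nuclear genes of highest mean FPKM, each list's 3 defining and 4 highest genes, the 10 widest gaps in each direction, every expressed HOX gene and the 15 highest transcription factors. Other genes named (among them COL9A3, MKI67, HLA-C, MALAT1, HBE1, TNNC1, KRT86, TPM2, ASNS, CCNE2, the cancer testis family members and the genes around CDKN2A) were chosen after their values were seen. Of the genes this rule takes, some are not reported here. Alternatives were other minimum levels, TPM, other scalings, pseudocounts, count filters and folds, and either library alone.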

Additional observations from a re-analysis of the deposited data

How the results depend on the processing

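The number of expressed genes, 8544, was 10703 at a minimum FPKM of 0.5, 6410 at 2, 10785 with TPM, 9097 with FPKM over nuclear totals and 14010 when at least 10 counts in both libraries were asked for instead. From either library alone it was 9067 to 9480. Genes with no count numbered 38222 to 39320 from either library alone, and 42266 genes had at most 3 counts in both. The mitochondrially encoded share ranged from 12.9 to 26.0% and the share of the 50 most counted genes from 35.2 to 41.4% between the libraries; the mean of the latter, 38.3%, was 26.3% without mitochondrially encoded genes, by construction. The 1052 genes past 2-fold became 466 with log2(FPKM + 1), 9611 with no filter beyond 1 count, 3309 at 1.5-fold and 50 at 4-fold. The first alternative shrinks gaps of low genes, the second admits genes of few counts. Without the mitochondrially encoded genes and their nuclear pseudogenes, chosen after seeing the data, it was 1035. The 12 lists with 50% or more of their genes expressed became 16 at FPKM 0.5 and with TPM, stayed 12 at FPKM 2, and were 13 to 14 from either library alone. No paired analysis was possible because only 1 group was used. Depth limits the lowest levels: a gene at 0 in both libraries may still be present below 3 counts.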

Other observations

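HBE1, the embryonic epsilon chain of haemoglobin, chosen after its values were seen, had 653 and 793 counts, or 25.87 and 43.99 FPKM. The other 9 globin genes had at most 18 counts in a library, and HBB, HBD, HBM and HBQ1 had 0 in both. Only 9.99% of the exonic bases of HBE1 are shared with no other gene in GENCODE 29, so its level is uncertain. OR51B4, 1 of the 2 expressed olfactory receptor genes, overlaps HBE1 on the same strand and stood at 1.88 and 2.69 FPKM.

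The S100 family of calcium-binding proteins had 12 of 19 genes expressed, against 38.7% of all protein-coding genes. In both libraries 8 of them had an FPKM of at least 10. S100A11 had 1485 and 648 FPKM, S100A6 936 and 581 FPKM, and S100A10 686 and 327 FPKM, each higher in replicate 1. S100A4 and S100A2, the latter at 125 and 222 FPKM, were higher in replicate 2. Among chemokine ligands CCL26, eotaxin-3, was expressed at 5.14 and 5.01 FPKM, 1 of 2 expressed of 43.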
